A study of Saccharomyces cerevisiae with 32 samples.

Results

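The nuclear genes of the mitochondrial respiratory chain and of ATP synthase were followed in 8 natural isolates of the budding yeast Saccharomyces cerevisiae. The 41 genes were taken by their systematic names, out of 6696 open reading frames counted, a rule that uses no measured value, although earlier results of these data were known when it was set. They encode 4 subunits of complex II, 9 of complex III, 9 of complex IV, both cytochromes c, 14 proteins of ATP synthase and the 3 NADH dehydrogenases. The isolates carry the names CMP, BAN, CQC, BPL, CPI, BTT, AMH and BED (the order used below, from the highest to the lowest share of mRNA reads on the members), all with the genotype wild type and all grown in SC medium, and none is labelled as a control. Each isolate had 2 RNA-seq libraries and 2 ribosome profiling libraries, 32 in all. Ribosome profiling counts the mRNA fragments that a ribosome shields from nuclease, called footprints. The question was how far each complex, and each isoform within it, varied between genetic backgrounds at the level of mRNA and of footprints.

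The respiratory chain passes electrons from NADH and succinate to oxygen and pumps protons across the inner mitochondrial membrane, and ATP synthase lets those protons back to make ATP. Budding yeast has no proton-pumping complex I: single-chain NADH dehydrogenases on the inner face (NDI1) and the outer face (NDE1, NDE2) of the membrane feed electrons to ubiquinone, as complex II does from succinate. Complex III hands them to cytochrome c, and complex IV passes them to oxygen. A few core subunits of complexes III and IV and of ATP synthase are encoded in mitochondrial DNA, and the rest are nuclear. Many of the nuclear genes are repressed by glucose and induced by the Hap2/3/4/5 activator, and 2 isoform pairs, COX5A with COX5B and CYC1 with CYC7, are known for opposite responses to oxygen and haem.

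Library depth, as reads counted on open reading frames, was 3703931 to 11570247 for mRNA and 27621 to 4391002 for footprints. BAN had the shallowest footprint libraries, with 63336 and 27621 reads, followed by CMP with 145164 and 99809. Footprint values of BAN and CMP are therefore the least precise, and in BAN the less abundant members rest on few reads (INH1 had 7 and 1 reads, ATP15 had 8 and 4). The mitochondrial open reading frames took from 1.34% of the mRNA reads in AMH to 20.2% in CQC, which lowers the share left for every nuclear gene alike. Of footprint reads they took 0.0124% in CQC and at most 0.0225%, in BAN. Shares, CPM and orders of isolates below keep these reads in the total. Shares and CPM of the 2 assays therefore have unlike denominators, most of all in CQC.

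The members together took their largest share of mRNA reads in CMP and their smallest in BED. The shares of mRNA reads were 0.603% ± 0.020 in BED, 0.735% ± 0.0022 in AMH, 1.02% ± 0.035 in BTT, 1.07% ± 0.051 in CPI, 1.48% ± 0.050 in BPL, 2.13% ± 0.20 in CQC, 3.14% ± 0.18 in BAN and 3.25% ± 0.23 in CMP (mean ± SD, n = 2 libraries each). Of footprint reads the shares were 0.547% ± 0.057 in BED, 0.617% ± 0.080 in AMH, 1.03% ± 0.042 in BTT, 1.18% ± 0.062 in CPI, 1.47% ± 0.037 in BPL, 2.07% ± 0.16 in BAN, 3.08% ± 0.13 in CMP and 3.98% ± 0.16 in CQC. The low end was the same in both assays, BED, AMH, BTT, CPI and BPL in that order. At the high end CQC moved from the third place in mRNA to the first in footprints, above CMP and BAN. The library values of these 3 isolates did not overlap in footprints. The part of the mitochondrial mRNA reads of CQC in this move was not tested.

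All 41 members differed among the isolates in mRNA and all 41 in footprints (edgeR's quasi-likelihood test over the 8 isolates with Benjamini-Hochberg adjustment at 0.05, which also gives every called change below). Over all genes tested, 95.7% were called in mRNA and 73.1% in footprints, so the mRNA count is close to the background. Translation efficiency (TE), the footprint level relative to the mRNA level of the same gene, differed among the isolates for 38 of 41 members, against 29.8% of all genes tested. Every member averaged 50 reads or more per library in both assays, to which the genes tested were not held. The part of read number in this and later comparisons with all genes tested was not tested. COX5B (adjusted p = 0.0863), CYC1 (0.0721) and NDE1 (0.0557) were not called. On the log2(CPM + 1) scale, where CPM are counts scaled to the same total in every library, the isolate means of the members spanned a median of 2.77 in mRNA and 3.28 in footprints. Over 2372 genes that averaged 50 reads or more per library in both assays the median ranges were 2.18 and 2.15. The range was wider in footprints than in mRNA for 28 members (68.3%), against 47.2% of those genes.

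BED had the lowest mRNA mean of the 8 isolates for 31 members and the lowest footprint mean for 32. The highest mRNA mean fell in CMP for 21 members, among them 13 of the 14 ATP synthase genes, and in BAN for 16, mostly of complexes III and IV. In footprints CQC was highest for 29 members, CMP for 11 and BAN for NDE1.

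**Figure D1:**
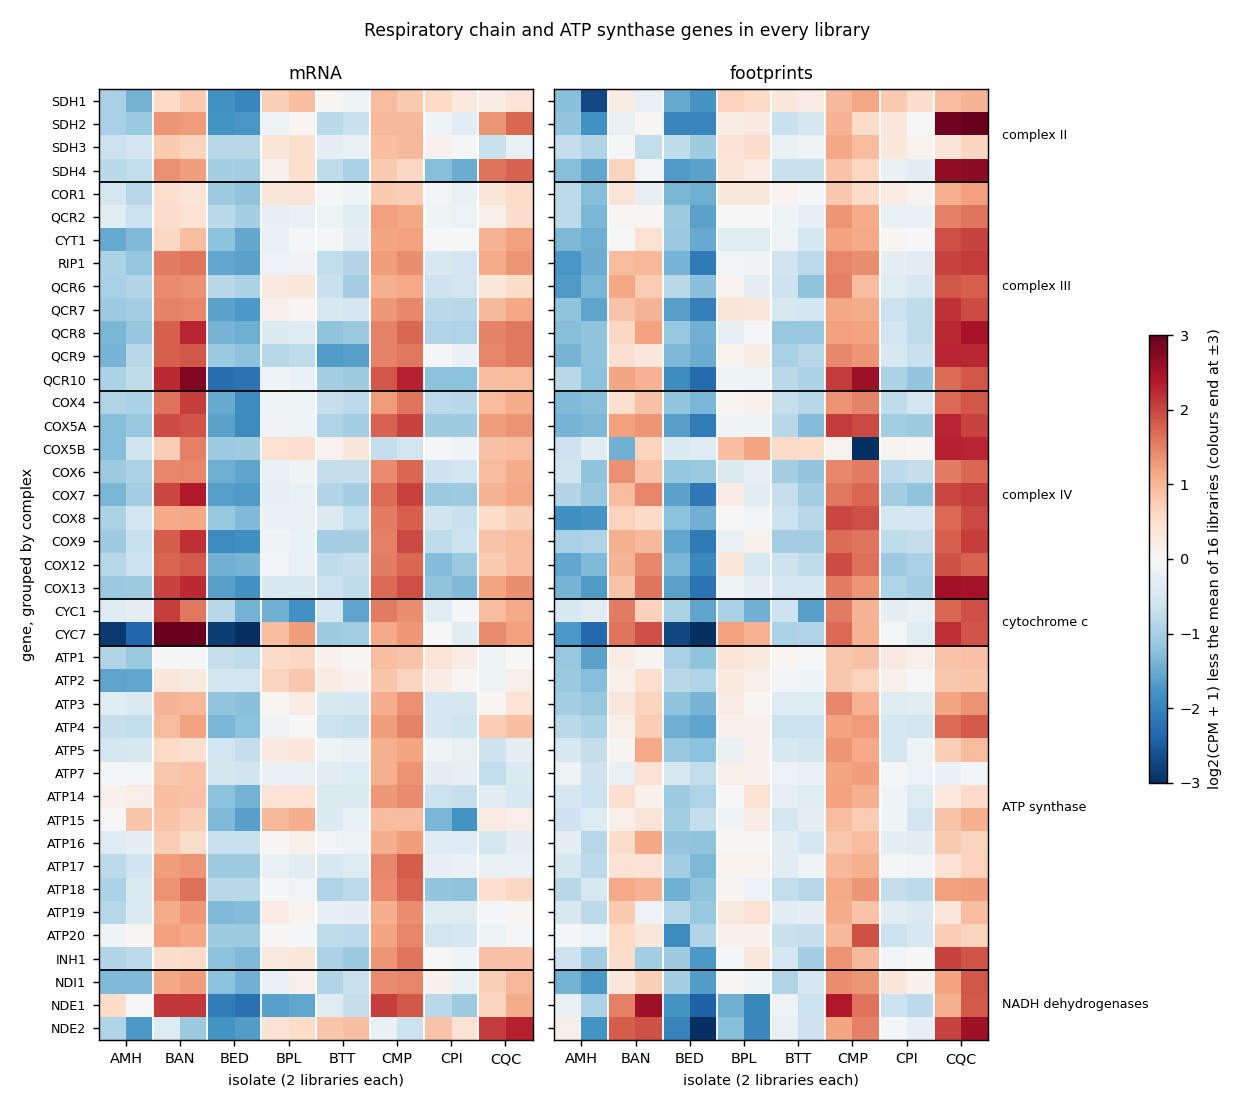
The heat map shows log2(CPM + 1) of each of the 41 members (rows, by complex) in each library (columns, 2 per isolate) less that gene's mean over the 16 libraries of the assay, for mRNA on the left and footprints on the right. BED and AMH are blue for most rows in both assays, CMP is red in both, BAN is redder in mRNA than in footprints, and the ATP synthase rows of CQC are pale in mRNA.

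Set against the mean of the other 7 isolates on the log2 scale, the complexes did not move as 1 block in every isolate; the 8 contrasts share libraries, so their counts are not independent. In BED, 41 of 41 members were lower in mRNA (29.5% of all genes tested were) and 40 were lower in footprints (13.9%); the median differences were −1.76 for complex II, −1.76 for complex III, −2.09 for complex IV and −1.39 for ATP synthase. The extremes were CYC7, a cytochrome c, at −4.24 ± 0.32 (SE, 2 libraries against 14; adjusted p = 4.93e-08) and QCR10 of complex III at −2.76 ± 0.25 (adjusted p = 2.91e-07). AMH was lower for 35 members in mRNA (30.4%) and higher for 1 (33.4%), and lower for 35 in footprints (14%). The 1 higher member was ATP15, the epsilon subunit of the F1 head, at 0.60. The largest falls in AMH were CYC7 at −3.12 ± 0.29 (adjusted p = 3.14e-07) and ATP2, the catalytic beta subunit, at −1.80 ± 0.15 (adjusted p = 1.34e-07). BTT was lower for 36 members in mRNA (19.9%) and 30 in footprints (13.2%), and higher in mRNA for NDE2 alone (32.9%). Complex III held both of its largest falls, the small subunits QCR9 at −2.17 ± 0.19 (adjusted p = 4.31e-07) and QCR8 at −1.60 ± 0.21 (adjusted p = 1.98e-05).

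At the high end, BAN was higher for 39 members in mRNA (34% of all genes tested) and lower for 1 (33.1%), NDE2. The gradient between complexes was steep there, with medians of 3.39 for cytochrome c, 2.5 for complex IV, 2.01 for complex III, 1.48 for complex II and 1.31 for ATP synthase. CYC7 rose by 4.39 ± 0.16 (adjusted p = 1.97e-11) and QCR10 by 3.27 ± 0.15 (adjusted p = 3.64e-10). In the BAN footprints 10 members were higher (3.25%) and none lower (0.954%), 5 of them in complex IV, 2 in complex III, 1 cytochrome c and 2 NADH dehydrogenases, with none in complex II or ATP synthase. Without its first or its second footprint library 3 were called. CMP was higher for 39 members in mRNA (27.6%) and 40 in footprints (11.4%), with none lower in footprints (7.31%). Its complexes lay closer together than those of BAN, with mRNA medians of 2.07 for complex IV, 1.67 for complex III, 1.58 for ATP synthase and 1.19 for complex II. QCR10 at 2.57 ± 0.16 (adjusted p = 1.0e-08) and NDE1 at 2.41 ± 0.14 (adjusted p = 4.07e-09) led, and COX5B, at −0.61, was the only member lower (26.2%).

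In CQC the electron transport complexes and ATP synthase parted in mRNA. All 9 members of complex III and all 9 of complex IV were higher, with medians of 1.40 and 1.34, as were both cytochromes c and the 3 NADH dehydrogenases. Of the 14 ATP synthase genes 4 were higher (ATP3, ATP4, ATP18 and the inhibitor INH1), 3 were lower (ATP5, ATP7 and ATP16) and 7 were not called, with a median of 0.12. In all, 30 members were higher (35.6%) and 4 lower (37.2%), the fourth being SDH3. The 2 largest rises were NDE2 at 2.77 ± 0.13 (adjusted p = 1.93e-10) and SDH4, a membrane anchor of complex II, at 2.13 ± 0.11 (adjusted p = 2.25e-10). The CQC footprints were higher for 39 members (26.2%) and lower for none (23.3%). There 12 of 14 ATP synthase genes were called, with a median of 0.89 against 2.21 for complex III and 2.14 for complex IV.

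BPL and CPI had mixed profiles. BPL was higher for 5 members in mRNA (27.6%) and lower for 14 (19.1%). The 5 were CYC7, ATP1, ATP2, ATP15 and SDH1, whereas 6 complex IV and 4 complex III genes were lower. CYC1 at −2.12 ± 0.23 (adjusted p = 4.62e-06) and NDE1 at −2.08 ± 0.20 (adjusted p = 1.12e-06) were the largest falls. With the BAN libraries left out, 12 members were higher and 8 lower in BPL, so the balance there turns on the isolate it is set against. Without the first or the second BPL mRNA library 9 and 7 members were called, and without the first BAN mRNA library 29. In the BPL footprints 11 members were higher (16.1%) and 3 lower (9.07%), the 3 being CYC1, NDE1 and NDE2; without the second BPL footprint library 2 were higher and 3 lower, and without the first 5 and 3. CPI was lower for 23 members in mRNA (22.4%) and higher for 3 (31.4%), ATP1, SDH1 and NDE2. In footprints 16 were lower (12%), 8 of them in complex IV, and SDH1 was higher (17.7%); without the second CPI footprint library 10 were lower. ATP15 at −1.93 ± 0.24 (adjusted p = 1.14e-05) and SDH4 at −1.59 ± 0.14 (adjusted p = 6.20e-07) fell most in mRNA.

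**Figure D2:**
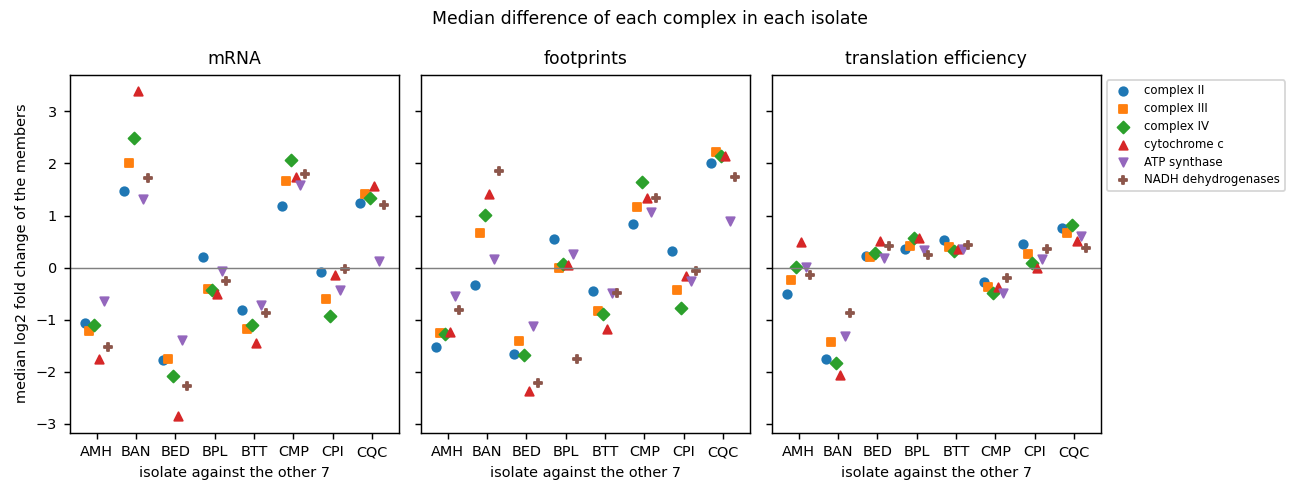
Each point is the median log2 fold change of the members of 1 complex or group in 1 isolate against the mean of the other 7 (vertical axis), for mRNA, footprints and TE from left to right; error bars are not drawn. In mRNA the ATP synthase median of CQC lies at 0.12 with complexes III and IV at 1.40 and 1.34, and all 6 groups of BAN lie below 0 in TE.

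Complex II, succinate dehydrogenase, held a member of wide and a member of narrow range in mRNA. SDH2, its iron-sulfur subunit (YLL041C, chromosome XII, 53131 to 53931 in the R64 assembly), stood at 538 and 537 CPM in CMP, 682 and 665 in BAN, 687 and 904 in CQC, 245 and 284 in BPL, 249 and 220 in CPI, 155 and 172 in BTT, 138 and 124 in AMH, and 77.8 and 79.7 in BED. BED was lowest and CQC and BAN highest, without overlap between these and the other isolates. SDH3, the cytochrome b subunit, stood at 407 and 427 CPM in CMP, 375 and 347 in BAN, 136 and 186 in CQC, 279 and 302 in BPL, 237 and 214 in CPI, 181 and 186 in BTT, 138 and 146 in AMH, and 122 and 122 in BED. In CPM CQC was thus at the top for SDH2 and among the lowest 3 isolates for SDH3, where its libraries overlapped those of AMH and BTT. The total includes mitochondrial reads, 20.2% in CQC against 1.34% in AMH and 3.96% in BTT. The place of CQC for SDH3 without them was not tested. In footprints SDH2 reached 2157 ± 131 CPM in CQC against 69.9 ± 0.099 in BED, and SDH3 347 ± 48 against 128 ± 19. The flavoprotein SDH1 spanned 2.76 in mRNA and SDH4 3.08 on the log2(CPM + 1) scale.

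Complex III ran from the core protein COR1 to the small subunit QCR10 (YHR001W-A, chromosome VIII, 107826 to 108122). QCR10 mRNA stood at 662 and 895 CPM in CMP, 851 and 1245 in BAN, 343 and 346 in CQC, 164 and 156 in BPL, 75.6 and 76.1 in CPI, 88.2 and 85.8 in BTT, 92.7 and 106 in AMH, and 36.8 and 37.6 in BED. BAN and CMP overlapped at the top, CQC lay alone below them, and BED alone at the bottom. COR1, by contrast, stood at 1143 and 1094 CPM in CMP, 926 and 862 in BAN, 848 and 961 in CQC, 841 and 861 in BPL, 624 and 577 in CPI, 647 and 600 in BTT, 464 and 372 in AMH, and 309 and 283 in BED. BAN, BPL and CQC lay together for COR1, whereas for QCR10 they were far apart. The other 7 members spanned from 2.08 (QCR2, the second core protein) to 3.48 (QCR9) on the log2(CPM + 1) scale in mRNA, with RIP1, the Rieske iron-sulfur protein, at 3.15 and CYT1, cytochrome c1, at 2.61.

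The narrowest member of complex IV outside the COX5 pair was COX8, and the widest COX7, both small membrane subunits. COX7 mRNA stood at 729 and 944 CPM in CMP, 915 and 1194 in BAN, 461 and 507 in CQC, 192 and 198 in BPL, 105 and 107 in CPI, 123 and 110 in BTT, 87.5 and 111 in AMH, and 71.6 and 69.8 in BED. COX8 stood at 342 and 413 CPM in CMP, 261 and 263 in BAN, 173 and 194 in CQC, 102 and 101 in BPL, 77.5 and 73.7 in CPI, 86.9 and 70.3 in BTT, 60.3 and 78.7 in AMH, and 52.9 and 46.3 in BED. Both genes put BED lowest and CMP, BAN and CQC highest, and AMH, BTT and CPI lay close together. Their ranges of 3.87 and 2.90 on the log2(CPM + 1) scale enclose those of COX4, COX6, COX9, COX12 and COX13.

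The ATP synthase genes spanned 1.76 to 2.78 on the same scale, all less than the 2.90 of COX8. ATP18, subunit i/j of the membrane part, was the widest, with mRNA at 379 and 480 CPM in CMP, 361 and 447 in BAN, 203 and 219 in CQC, 136 and 134 in BPL, 61.9 and 60.8 in CPI, 75.7 and 82.2 in BTT, 72.9 and 105 in AMH, and 78.8 and 79.3 in BED. CPI was lowest here, and BAN and CMP overlapped at the top. The narrowest was ATP5, the stalk subunit that confers oligomycin sensitivity, at 591 and 642 CPM in CMP, 427 and 398 in BAN, 184 and 231 in CQC, 342 and 354 in BPL, 263 and 241 in CPI, 254 and 241 in BTT, 201 and 203 in AMH, and 190 and 173 in BED. For ATP5 the CQC libraries overlapped those of BED and AMH in CPM, at the bottom of the order. Mitochondrial reads, kept in the total, were 20.2% in CQC against 1.34% in AMH and 1.67% in BED. The place of CQC without them was not tested. In footprints the ATP5 mean of CQC was second, at 503 ± 58 CPM, below CMP at 665 ± 62. The catalytic head subunits ATP1 and ATP2 were the most abundant members in reads, with mRNA means over the isolates of 1234 and 1741 CPM. Both were lowest in AMH, at 569 ± 62 and 531 ± 6.7 CPM, and their mRNA was higher than in the other isolates in BPL (0.44 ± 0.12 and 0.60 ± 0.12) and in CMP (1.15 ± 0.11 and 1.0 ± 0.12).

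The balance within each of 3 isoform pairs differed between the isolates in mRNA. COX5A and COX5B encode alternative forms of the same complex IV subunit, COX5A being the aerobic form and COX5B known as the hypoxic form. COX5A (YNL052W, chromosome XIV, 531725 to 532186) had mRNA at 1404 and 1683 CPM in CMP, 1601 and 1529 in BAN, 984 and 1057 in CQC, 384 and 377 in BPL, 197 and 198 in CPI, 220 and 203 in BTT, 171 and 186 in AMH, and 134 and 109 in BED. COX5B (YIL111W, chromosome IX, 155222 to 155765) stood at 94.6 and 106 CPM in CMP, 265 and 448 in BAN, 288 and 297 in CQC, 217 and 222 in BPL, 154 and 146 in CPI, 170 and 203 in BTT, 64.3 and 103 in AMH, and 73.0 and 74.3 in BED. CMP, which shared the highest COX5A with BAN, had COX5B close to that of AMH. The COX5B to COX5A ratio of mRNA was 0.880 in BTT, 0.759 in CPI, 0.609 in BED, 0.576 in BPL, 0.457 in AMH, 0.287 in CQC, 0.220 in BAN and 0.0650 in CMP.

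Of the 28 pairs of isolates 24 differed in COX5A mRNA and 19 in COX5B mRNA. Among neighbours in the order of COX5A, BAN and CMP, BTT and CPI, and CPI and AMH did not differ beyond their spread, and in that of COX5B only CQC and BPL did. COX5A footprints stood at 1364 and 1242 CPM in CMP, 742 and 796 in BAN, 1550 and 1299 in CQC, 295 and 289 in BPL, 153 and 150 in CPI, 178 and 127 in BTT, 120 and 123 in AMH, and 101 and 73.6 in BED. COX5B footprints stood at 48.2 and 0 CPM in CMP, 15.8 and 72.4 in BAN, 225 and 221 in CQC, 84.4 and 104 in BPL, 48.4 and 47.0 in CPI, 67.7 and 65.8 in BTT, 28.6 and 36.1 in AMH, and 32.9 and 34.0 in BED. The BAN values are 1 and 2 reads, and those of CMP 7 and 0 reads, so neither isolate can be placed in the footprint order. In the 6 other isolates CQC was highest and AMH and BED lowest, and COX5B had a lower share of the pair in footprints than in mRNA in all 6. The share was lower in BAN and CMP too, but on those few reads.

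Cytochrome c is made from CYC1, isoform 1 and the main aerobic form, and CYC7, isoform 2. CYC1 (YJR048W, chromosome X, 526335 to 526664) had mRNA at 284 and 256 CPM in CMP, 410 and 292 in BAN, 186 and 213 in CQC, 35.0 and 26.8 in BPL, 77.4 and 93.3 in CPI, 63.9 and 31.6 in BTT, 72.9 and 79.1 in AMH, and 52.3 and 35.5 in BED. CYC7 (YEL039C, chromosome V, 79636 to 79977) stood at 82.7 and 92.7 CPM in CMP, 378 and 450 in BAN, 99.9 and 87.2 in CQC, 71.1 and 89.6 in BPL, 37.4 and 29.6 in CPI, 17 and 17.3 in BTT, 4.2 and 6.24 in AMH, and 4.32 and 1.88 in BED. CYC7 had the widest mRNA range of all members, 6.72 on the log2(CPM + 1) scale. BPL was the 1 isolate in which both libraries had more CYC7 than CYC1 mRNA, since its CYC1 was the lowest of the 8 while its CYC7 lay with CMP and CQC. BAN had 1 library on either side of equality. The CYC7 to CYC1 ratio of mRNA was 2.60 in BPL, 1.19 in BAN, 0.470 in CQC, 0.391 in CPI, 0.383 in BTT, 0.325 in CMP, 0.0682 in AMH and 0.0674 in BED.

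The order of CYC7 mRNA was BAN, CQC, CMP, BPL, CPI, BTT, AMH and BED, in which CQC and CMP, CMP and BPL, and AMH and BED did not differ beyond their spread; 24 of 28 pairs differed. For CYC1 22 pairs differed, and the neighbours BTT and BED, and BED and BPL, at the bottom did not differ. In footprints CYC1 stood at 462 and 321 CPM in CMP, 458 and 253 in BAN, 522 and 602 in CQC, 79.7 and 56.8 in BPL, 131 and 136 in CPI, 101 and 50.1 in BTT, 115 and 124 in AMH, and 80.3 and 51.5 in BED. CYC7 footprints stood at 592 and 371 CPM in CMP, 553 and 688 in BAN, 835 and 675 in CQC, 419 and 374 in BPL, 176 and 141 in CPI, 93.8 and 95.9 in BTT, 54.4 and 35.3 in AMH, and 26.3 and 13.8 in BED. The mean CYC7 to CYC1 ratio of footprints was above 1 in 6 of 8 isolates, from 1.19 in CPI to 5.84 in BPL, and below it in AMH (0.371) and BED (0.302). In each isolate this ratio was higher in footprints than in mRNA.

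NDE1 and NDE2 encode the external NADH dehydrogenases, which oxidise cytosolic NADH. NDE1 (YMR145C, chromosome XIII, 554793 to 556475) had mRNA at 734 and 635 CPM in CMP, 753 and 753 in BAN, 274 and 375 in CQC, 55.1 and 58.4 in BPL, 97.7 and 82.5 in CPI, 134 and 106 in BTT, 256 and 172 in AMH, and 39.5 and 35.7 in BED. NDE2 (YDL085W, chromosome IV, 303211 to 304848) stood at 20.7 and 15 CPM in CMP, 17.8 and 10.5 in BAN, 106 and 123 in CQC, 33.0 and 35.7 in BPL, 44.2 and 33.0 in CPI, 43.7 and 46.0 in BTT, 12.3 and 6.62 in AMH, and 6.22 and 6.87 in BED. BAN and CMP, highest for NDE1, were among the lowest 4 for NDE2, and CQC was alone at the top for NDE2. The mRNA ratio of NDE2 to NDE1 was 0.605 in BPL, 0.426 in CPI, 0.378 in BTT, 0.356 in CQC, 0.175 in BED, 0.0433 in AMH, 0.0260 in CMP and 0.0184 in BAN.

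Footprints of this pair gave a different picture. NDE1 footprints stood at 792 and 461 CPM in CMP, 426 and 869 in BAN, 309 and 530 in CQC, 53.1 and 38.2 in BPL, 94.1 and 85.6 in CPI, 132 and 95.0 in BTT, 126 and 75.8 in AMH, and 42.1 and 26.7 in BED. NDE2 footprints stood at 152 and 190 CPM in CMP, 237 and 253 in BAN, 273 and 392 in CQC, 26.6 and 16.7 in BPL, 63.2 and 55.4 in CPI, 56.2 and 42.8 in BTT, 74.4 and 18.5 in AMH, and 15.8 and 7.36 in BED. BAN and CMP, low in NDE2 mRNA, followed CQC in NDE2 footprints, where CQC and BAN, and BAN and CMP, did not differ beyond their spread. The NDE2 to NDE1 ratio of footprints lay between 0.286 in CMP and 0.809 in CQC. NDI1, the internal enzyme, ran from 116 ± 12 CPM in BED to 796 ± 17 in CMP in mRNA and from 87.9 ± 13 in AMH to 782 ± 254 in CQC in footprints.

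These ratios were tested by an exact permutation over all 2027025 ways of dividing the 16 libraries of an assay into 8 pairs, one-sided for small differences within isolates, with Benjamini-Hochberg adjustment over the 6 tests. The log2 ratio of COX5B to COX5A spanned 3.76 in mRNA (adjusted p = 0.000133) and 5.17 in footprints (adjusted p = 0.00319), from BTT to CMP in both. The CMP end of the footprint span rests on the 7 and 0 COX5B reads and on the 0.5 reads added to each count; with 5 reads added the span was 3.23 (exact permutation, adjusted p = 0.00303). That of CYC7 to CYC1 spanned 5.27 in mRNA (adjusted p = 0.000273) and 4.27 in footprints (adjusted p = 0.00184), from BPL to BED in both. That of NDE2 to NDE1 spanned 5.04 in mRNA (adjusted p = 3.55e-05). In footprints its span of 1.5 did not pass the threshold (exact permutation, adjusted p = 0.178, with a pooled SD of 0.49 within isolates). The deposited counts do not show how reads shared by both genes of a pair were treated, so ratios of these paralogs are uncertain to that extent.

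**Figure D3:**
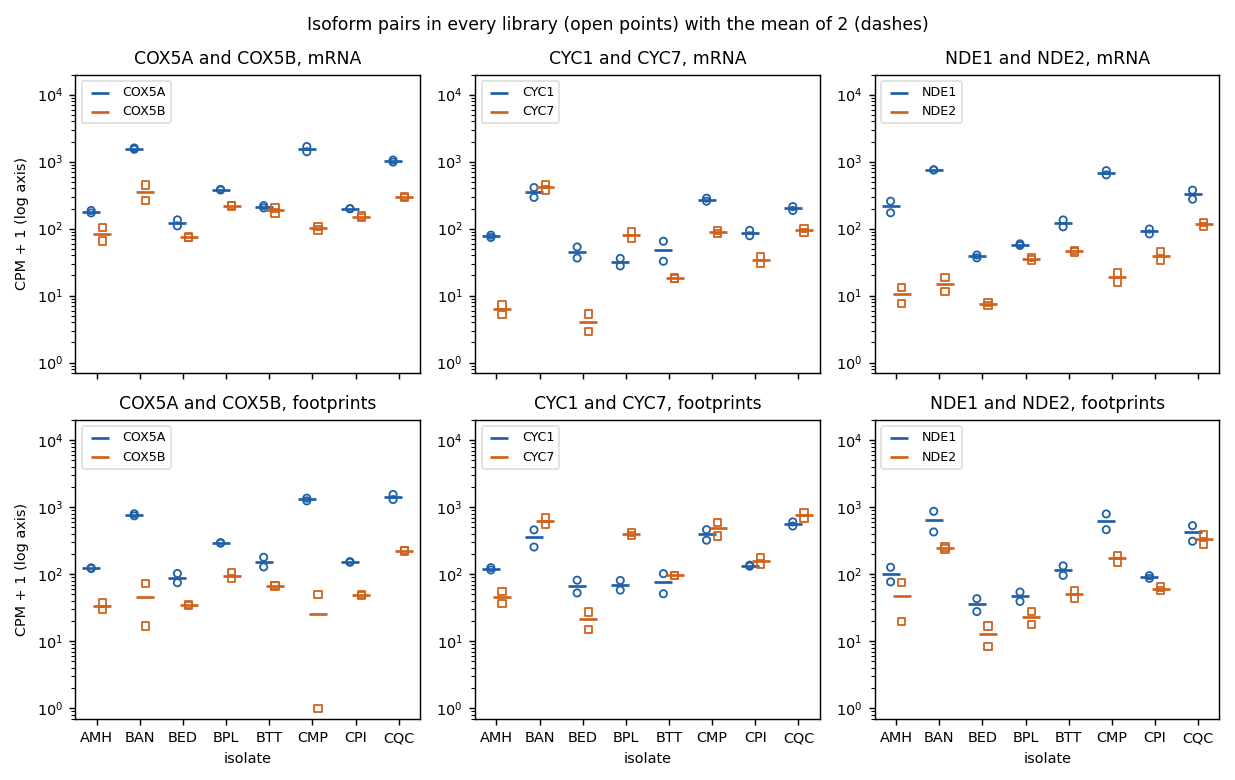
The panels show CPM + 1 on a log axis (vertical) by isolate for COX5A and COX5B, CYC1 and CYC7, and NDE1 and NDE2, with mRNA above and footprints below; open points are single libraries and dashes the mean of 2. COX5B falls away from COX5A in CMP, CYC7 stands above CYC1 in BPL in both assays, and NDE2 lies closer to NDE1 in footprints than in mRNA in BAN and CMP.

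Levels were compared between genes as CPM per kilobase of the deposited coding length (RPKM, mean of the 8 isolates). That length is the coding codons less 10 for members without an intron. The subtraction weighs more on short genes, and its effect on the ranges and SDs below was not tested. The subunits of these complexes assemble in fixed proportions, most of them in equal numbers, with several copies of ATP1 and ATP2 in each ATP synthase. In ATP synthase mRNA ran from 175 RPKM for ATP15 to 1674 for ATP4, a stator stalk subunit, a 9.59-fold range. Its footprints ran from 433 RPKM for ATP20, subunit g, to 1570 for ATP2, a 3.63-fold range. ATP15 moved from 175 RPKM in mRNA to 771 in footprints, and ATP14, another stalk subunit, from 256 to 533, while ATP4 moved from 1674 to 799 and ATP17 from 1525 to 750. Levels per length of ATP synthase thus lay closer together in footprints than in mRNA: the SD over its members, on the log2 scale, was smaller in footprints in 8 of 8 isolates, with medians of 0.69 and 1.03.

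Complex III also had the smaller SD in footprints in 8 of 8 isolates (medians 0.99 and 1.05), and complex II in 7 of 8. In complex III the lowest member per length was CYT1, at 249 RPKM in mRNA and 354 in footprints, and the highest QCR8, at 2849 and 2351. In complex II SDH4 moved from 256 RPKM in mRNA to 948 in footprints, the highest of its 4 subunits. Complex IV did not show this: its SD was smaller in footprints in 0 of 8 isolates, and in 3 of 8 without COX5B, whose level fell from 429 RPKM in mRNA to 166 in footprints. Without COX5B its mRNA levels were already within a 3.35-fold range, from 723 RPKM for COX8 to 2420 for COX7. Over the 5337 genes tested in both assays the SD was larger in footprints (2.16) than in mRNA (1.81), whereas over the 41 members it was 1.11 and 1.37. The 2 sets were not matched on read number: every member averaged 50 reads or more per library in both assays, and the 5337 genes were not held to that. These are descriptions without a test, and the shortest members, whose coding regions hold few footprint positions, were not examined apart.

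**Figure D4:**
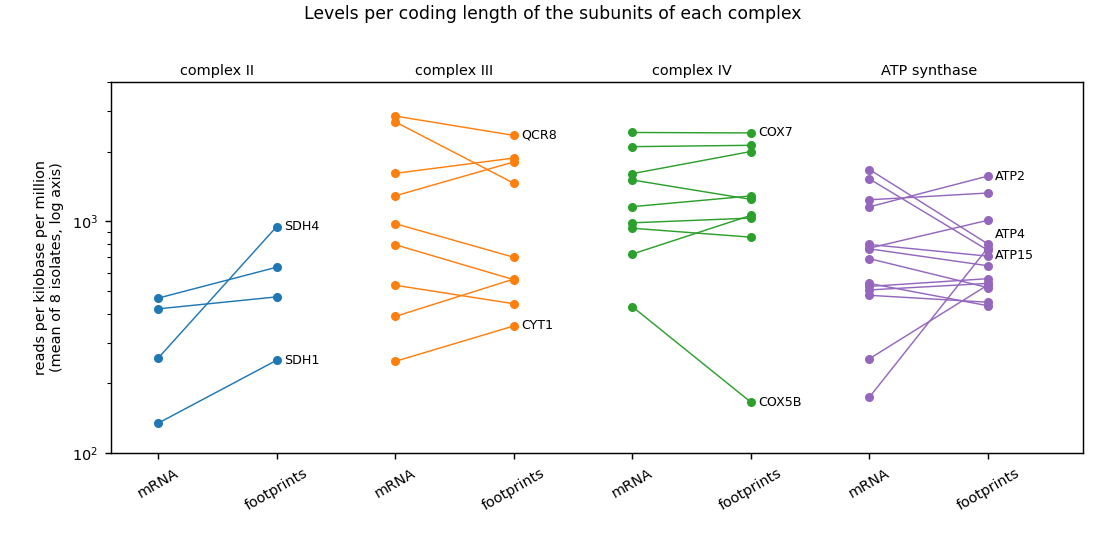
Each line joins the mRNA level and the footprint level of 1 subunit, in RPKM (vertical log axis, mean of 8 isolates; no error bars), for complexes II, III and IV and ATP synthase. The ATP synthase lines run together from a 9.59-fold to a 3.63-fold range, and COX5B drops away from the other complex IV subunits.

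The mean TE of the members, as footprint less mRNA level on the log2(CPM + 1) scale, had a median of 0.04 against −0.69 over all 5337 genes. All 41 members averaged 50 reads or more per library in both assays, to which the 5337 genes were not held. The part of read number in this difference, and in the percentiles below, was not tested. CYC7 was highest at 2.26, at percentile 97.7 of all genes, followed by ATP15 (2.25), SDH4 (1.62), NDE2 (1.43) and ATP14 (1.14). COX5B was lowest at −1.78, at percentile 10.1, and ATP4 followed at −1.16. The COX5B mean includes BAN, with 1 and 2 footprint reads, and CMP, with 7 and 0. Its place without these 2 isolates was not tested. Whether TE varies with coding length among the members was not tested.

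BAN and CQC had the most members called in TE when each isolate was set against the other 7, a ranking that turns on BAN being among the isolates compared. With the BAN libraries left out, 28 members were called in CMP (27 of them lower), 16 in CQC and 11 in AMH, against 5, 21 and 5 with them. In BAN TE fell for 34 members (7.55% of all genes tested fell) and rose for NDE2 alone (6.39%). Every member of complexes II, III and IV and both cytochromes c fell, with medians of −1.76, −1.42, −1.82 and −2.06, and 9 of 14 ATP synthase genes did (median −1.32). The largest were COX5B at −2.91 ± 0.91 (adjusted p = 0.0311), which rests on 3 footprint reads and was lost in 4 of the fits without 1 library, and CYC7 at −2.79 ± 0.34 (adjusted p = 2.05e-06). NDE2 rose by 2.37 ± 0.57 (adjusted p = 0.00452), which rests on 15 and 7 footprint reads and 73 and 39 mRNA reads in BAN. Without the first BAN footprint library 23 members fell. BAN has the lowest footprint depth of the 8 isolates, and the part of depth in this difference was not tested. In BAN mRNA 39 members were higher and NDE2 was lower. TE is taken relative to that mRNA, so the opposite directions in TE are not independent of it.

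CQC had higher TE for 21 members (6.24%) and lower for none (3%). They comprised 7 ATP synthase genes, 6 of complex IV, 5 of complex III and 3 of complex II, with no cytochrome c or NADH dehydrogenase. SDH2 at 1.30 ± 0.20 (adjusted p = 0.000113) and QCR6, the acidic hinge protein of complex III, at 1.25 ± 0.22 (adjusted p = 0.000532) led. ATP5 (1.17 ± 0.20) and ATP16 (1.01 ± 0.18), both lower in CQC mRNA, were among the 7. Their TE is taken relative to that mRNA, so the 2 directions are not independent. The count fell to 8 without the first CQC mRNA library and to 10 and 12 without its first and its second footprint library.

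In the 6 other isolates 2 to 6 members were called in TE, small counts that several other settings raised or lowered by over 1.5 times. A replicate block raised the count in all 6, most in BTT, and its counts are given with the alternatives below. The few calls in these isolates therefore do not show that TE was unchanged there. BPL rose for 5 (2.06%) and fell for 1 (3.32%), led by NDE2 at −2.13 ± 0.39 (adjusted p = 0.00128) and QCR9 at 1.48 ± 0.21 (adjusted p = 0.000125). BTT rose for QCR9 at 1.19 ± 0.21 (adjusted p = 0.000517; 2.02%) and fell for NDE2 at −1.18 ± 0.29 (adjusted p = 0.0116; 3.97%). CPI rose for ATP15 at 1.65 ± 0.29 (adjusted p = 0.000613) and SDH4 at 1.36 ± 0.19 (adjusted p = 3.54e-05) (1.29%), and fell for none (3.47%). ATP15 and SDH4 are the 2 genes whose mRNA fell most in CPI. TE is taken relative to that same mRNA, so the rise and the fall are not independent. The same holds wherever mRNA and TE moved in opposite directions, as for QCR9 and NDE2 in BTT. CMP rose for NDE2 at 1.68 ± 0.43 (adjusted p = 0.0178; 3.86%) and fell for 4 members (1.56%), ATP17, subunit f, most at −1.06 ± 0.22 (adjusted p = 0.00286). BED rose for 4 (2.42%), led by ATP15 at 1.23 ± 0.32 (adjusted p = 0.0214) and COX4 at 0.92 ± 0.23 (adjusted p = 0.0207). AMH rose for ATP2 (3.39%) and fell for 4 (6.73%), led by COX8 at −1.0 ± 0.24 (adjusted p = 0.00804) and ATP15 at −0.98 ± 0.29 (adjusted p = 0.0305).

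Several of these calls rest on single libraries. Among the fits that left out 1 library, ATP15 in AMH lost its call in 10, COX8 in AMH and COX4 in BED in 3 each, NDE2 in CMP in 3, ATP15 in BED and NDE2 in BTT in 2 each, and NDE2 in BPL in 1. The counts of 4 in BED and of 6 in BPL fell as low as 0 and 1. QCR9 contains an intron, as do QCR10 and COX5B, and reads on their unspliced RNA are not separable in these counts.

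A further 73 genes of the pathway, none of them a member, were followed in 8 lists: accessory subunits, assembly factors of complexes II, III and IV and of ATP synthase, activators that translate mitochondrial mRNAs, transcription regulators, and carriers and dehydrogenases that feed the chain. All 73 differed among the isolates in mRNA and 57 of 72 in footprints, both close to the shares over all genes given above. Of the 73, AMH was lower in mRNA for 52 (30.4% of all genes tested were) and higher for 4 (33.4%), BED lower for 46 (29.5%) and higher for 3 (32.8%), and BTT lower for 36 (19.9%) and higher for 11 (32.9%). CQC was higher for 48 (35.6%) and lower for 11 (37.2%), CMP higher for 38 (27.6%) and lower for 8 (26.2%), and BAN higher for 33 (34%) and lower for 13 (33.1%). BPL was higher for 26 (27.6%) and lower for 17 (19.1%), and CPI higher for 23 (31.4%) and lower for 21 (22.4%), counts near those shares. The median differences were 0.70 in CQC, 0.43 in CMP and 0.22 in BAN.

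Transcription regulators were higher in CQC mRNA for 9 of 10 (35.6% of all genes tested; median 1.64), in CMP for 6 (27.6%) and in BAN for 5 (34%). The 10 were HAP1, HAP2, HAP3, HAP4, HAP5, CAT8, ADR1, ROX1, MOT3 and MIG1, and not all of them are activators. HAP4, the regulatory subunit of the Hap2/3/4/5 activator, stood at 89.7 ± 6.9 CPM in BED, 93 ± 34 in AMH, 249 ± 45 in CPI, 254 ± 33 in BTT, 368 ± 88 in BPL, 967 ± 93 in CMP, 1059 ± 86 in BAN and 1455 ± 101 in CQC (mean ± SD, n = 2). Its 3 highest isolates are those with the highest shares of reads on the members. CAT8 and ADR1, activators of genes for growth without glucose, were highest in CQC, and both lowest in AMH (9.24 ± 2.5 and 36.3 ± 9.1 CPM).

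Of the 4 accessory genes, all were higher in BAN (34%) and CMP mRNA (27.6%). COX26, a small protein of the complex III and IV supercomplex, ran from 1.5 ± 0.14 CPM in BED to 545 ± 145 in BAN, a range of 7.75 on the log2(CPM + 1) scale, and its footprints were highest in CQC (473 CPM). RCF1, a supercomplex factor, ran from 44.2 ± 3.2 CPM in BED to 287 ± 35 in CMP. Of 21 assembly factors for complex IV, 10 were higher (34%) and 3 lower (33.1%) in BAN (median 0.22), led by COA2 at 441 ± 82 CPM against 7.63 ± 3.2 in BED, while 16 were lower in AMH (30.4%) and 15 in BED (29.5%). Of 5 for ATP synthase, 2 were higher in CMP (27.6%) and 3 lower in BED (29.5%). Of 5 for complex II, 1 was higher (35.6%) and 3 lower (37.2%) in CQC mRNA (median −0.42), and 4 were higher (26.2%) in CQC footprints (median 1.13); SDH8 was highest in CQC in both assays (109 ± 6.91 CPM in mRNA and 239.7 ± 15.2 in footprints). The complex III factors CBP4, which helps cytochrome b assemble, and CYC3, which attaches haem to cytochrome c, ranged by 3.30 and 3.10, with CBP4 highest in CQC (307 ± 2.8 CPM) and CYC3 in CMP (352 ± 41).

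Of 13 activators of mitochondrial translation, 2 were higher (34%) and 3 lower (33.1%) in BAN mRNA (median −0.20), and in BTT 6 were higher (32.9%) and 2 lower (19.9%; median 0.16). In AMH 11 were lower (30.4%), in BED 10 (29.5%), and in CQC 9 were higher (35.6%). AEP3, which stabilises and activates the mitochondrial ATP6/8 mRNA, was the widest, from 20.2 ± 2.4 CPM in AMH to 436 ± 38 in BAN. Among the dehydrogenases that feed the chain, GUT2, for glycerol 3-phosphate, ran from 10.4 ± 0.66 CPM in AMH to 645 ± 37 in CQC, and CYB2, for lactate, from 22.5 ± 2.1 CPM in BED to 1028 ± 127 in CMP. The top isolates of CYB2, CMP and BAN (847 ± 83), were also those of NDE1, and the top isolate of GUT2 was also that of NDE2.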

How the data were processed

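For each library the authors deposited raw counts of reads on every open reading frame, beside a second value of another kind that was used only as coding length: it equals the coding codons less 10 for members without an intron. STAR 2.7.0a and CASAVA 1.8 are named, with the build sacCer3 for every isolate, per the submitters' processing notes. The counting tool, its annotation and its treatment of strand and of multiply matching reads were not given in the sources used here; the effect of sequence differences from that build was not tested. Per the labels' protocols, footprints came from RNase I digestion with rRNA removed by hybridisation, and the RNA-seq kit preserves strand. All 41 members matched a RefSeq gene table of the R64 assembly, which sacCer3 denotes, by locus tag, and coordinates are from it.

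From these counts CPM and RPKM were computed. In R 4.3.3, edgeR 4.0.16 with limma 3.58.1 (and DESeq2 1.42.0 as an alternative) fitted all genes that passed the filter on low counts (minimum count 10): 6269 in mRNA, 5347 in footprints and 5337 in TE, with TMM scaling within each assay. TE was the interaction of assay and isolate over all 32 libraries. Isoform ratios added 0.5 reads to each count. The fits were tested on simulated counts. Replicates of an isolate differed by 2.14 to 31.4 chi-square units per degree of freedom over genes, so none was a repeated library. Whether replicates came from separate cultures is not in the labels; p-values measure the spread between libraries, in part perhaps technical.

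Values are given in every library for the 3 isoform pairs and, in complexes II, III, IV and ATP synthase, for the members of widest and narrowest mRNA range; fold changes are given for the 2 largest called changes per isolate in mRNA and in TE. For each list of other pathway genes at most 3 were eligible, by mRNA range. NDE2 in BAN, and the members listed beside a count, were named after their values were seen. The members and the lists were chosen with earlier results of these data known. Alternatives were upper-quartile scaling, DESeq2, no filter on low counts, a length correction, a replicate block, leaving out BAN, and leaving out each library.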

Additional observations from a re-analysis of the deposited data

How the results depend on the processing

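The test over all 8 isolates called 41 members in mRNA and in footprints under each alternative, and 35 to 40 in TE without 1 library. The spans of the isoform ratios kept their side of the threshold under each alternative. Without 1 library the span of COX5B to COX5A was 3.57 to 3.94 in mRNA and 3.56 to 6.79 in footprints, that of CYC7 to CYC1 was 4.91 to 5.63 and 4.11 to 4.43, and that of NDE2 to NDE1 was 4.67 to 5.42 and 1.28 to 2.05. With 5 reads added to each count the COX5 span in footprints was 3.23. Over the alternatives, the counts of called members and the spans of the isoform ratios were labelled together, and 766 results stayed the same. For a count this meant within 1.5 times of the reported count, and for a span the same side of the threshold. The rest were all counts of called members: 63 moved further than 1.5 times and 5 changed their direction.

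For mRNA, leaving out BAN gave 20 called members in BPL, 12 of them higher, and leaving out 1 library gave 7 to 29 in BPL, including 9 without its first mRNA library. For footprints, the length correction gave 16 in BAN, and leaving out 1 library gave 3 to 11 in BAN, 5 to 15 in BPL and 11 to 22 in CPI. For TE, DESeq2 called 11 members in CMP, 10 of them lower, and 4 in CPI, and upper-quartile scaling 7 in BTT, 6 of them higher, and 9 in CMP. The length correction called 23 in BAN, 3 in BPL (1 higher, 2 lower), 2 in CMP and 11 in CQC. Without BAN there were 11 in AMH, 1 in BTT and 28 in CMP, 27 of them lower. Without 1 library the TE counts were 1 to 8 in AMH, 23 to 40 in BAN, 0 to 8 in BED, 1 to 15 in BPL, 1 to 7 in BTT, 1 to 14 in CMP, 2 to 5 in CPI and 8 to 29 in CQC; without the second AMH footprint library 1 member was called in AMH, and it was higher. The cause was not tested in any of these.

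Replicate numbers are shared between isolates and assays. The deviations of same-numbered libraries correlated between isolates with r from −0.623 to 0.440 in mRNA (10 of 28 pairs over 0.1). In footprints r ran from −0.255 to 0.365 (4 of 28). Between the assays of an isolate r ran from 0.0835 to 0.721, with a median of 0.343 (7 of 8 over 0.1). Pairing was to be accepted only if every pair exceeded 0.1, so the main fits do not pair the samples. The correlation between assays within most isolates is thus left out of the main TE model. With a replicate block, TE was called for 10 members in AMH, 9 in BED, 19 in BPL, 21 in BTT, 12 in CMP, 10 in CPI and 32 in CQC.

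The main limits are 2 libraries per isolate and assay and the shallow footprint libraries of BAN and CMP, so that TE counts in single isolates are the least stable values given here. The balance of higher and lower members in mRNA and in footprints did not turn in the isolates other than BPL under any alternative run.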
